A study of Mus musculus with 8 samples.

Results

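The genes of oxidative phosphorylation were examined in the cochleae of 8 mice. The set was defined by gene symbol: every probe set naming 1 gene alone was included when that gene was a subunit of NADH dehydrogenase (complex I, Nduf genes), succinate dehydrogenase (complex II, Sdh genes), the cytochrome bc1 complex (complex III, Uqcr genes and Cyc1), cytochrome c oxidase (complex IV, Cox4 to Cox8 genes) or ATP synthase (complex V, Atp5 genes). The Uqcc factors that assemble complex III also fell under the rule, as would have the genes of mitochondrial DNA, while Cox6a2 and Cox8b were left out by it. This gave 83 genes of the 18193 that had a probe set of their own, and 168 of 34945 such probe sets. No gene of mitochondrial DNA was among them, so all 83 are nuclear genes.

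Oxidative phosphorylation is the route by which mitochondria turn the electrons of NADH and succinate into ATP. Complexes I and II pass electrons to ubiquinone, complex III hands them to cytochrome c, complex IV gives them to oxygen, and the proton gradient that complexes I, III and IV build drives complex V. In the cochlea the stria vascularis is known for its dense mitochondria, since its marginal cells pump ions to keep up the potential of the endolymph, and damage to mitochondria is a well-known route to hearing loss.

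The mice were of the inbred strain CBA/CaJ, a common normal-hearing reference strain, and all 8 formed a single group labelled normal cochlea. Each received urethane (300 mg/kg, intraperitoneal) and was perfused with saline through the heart, a step meant to remove blood. Transcripts known from blood cells were read in every mouse. The hemoglobin gene Hbb-b2 lay at 1254 to 9512 and the neutrophil gene S100a8 at 528 to 9220.2, both above background in all. The source of these transcripts was not tested. The outer bony shell was opened, and what lay inside (modiolus, organ of Corti and spiral ligament) was taken from the ears of a mouse and pooled, so that 1 Affymetrix Mouse 430 2.0 array stands for 1 mouse. Labels giving sex, age or batch were not among those used here, so these are levels and their spread in normal animals, with no treated group to set beside them. Mouse numbers are names only.

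Values are MAS5 signals, linear intensities in arbitrary units that the authors scaled to a common level on every array (all 8 have the same trimmed mean). A signal can be set against the same gene in another mouse, but not against the signal of another gene as an amount of RNA. Precision is limited by there being 8 arrays. Correlations between arrays were 0.945 to 0.960 over all probe sets on the log2 scale, and the 3′ to 5′ signal ratios were 1.39 to 1.54 for Gapdh and 1.86 to 2.23 for Actb. Markers of the labelled tissue were counted beside the 62.6% of all 18193 genes that lay above background on every array. All 10 marginal cell, all 10 fibrocyte and all 9 supporting cell genes measured did so, as did 10 of 11 neuronal genes. Of 9 hair cell genes 5 did, a share below that of all genes. Pou4f3 and Cdh23 were above background on 0 arrays, Tmc1 on 4 and Slc26a5 on 7. All 5 osteoblast genes measured were also above background on every array, and their source was not tested.

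Nearly all subunits were detected. A gene was called detected when its probe set lay above a background threshold on all 8 arrays, set per array at the 95th percentile of 139 probe sets for receptors and organ-specific genes foreign to the ear (48.5 to 75.0 units). By this rule 77 of the 83 genes were detected, against 62.6% of all 18193 genes. They included all 4 subunits of complex II, all 9 of complex III, all 3 assembly factors of complex III and all 17 of complex V, with 31 of 33 in complex I and 13 of 17 in complex IV. Most were bright: 70 of the 77 fell in the upper 25% of detected genes by signal and 53 in the top 10%.

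**Figure D1:**
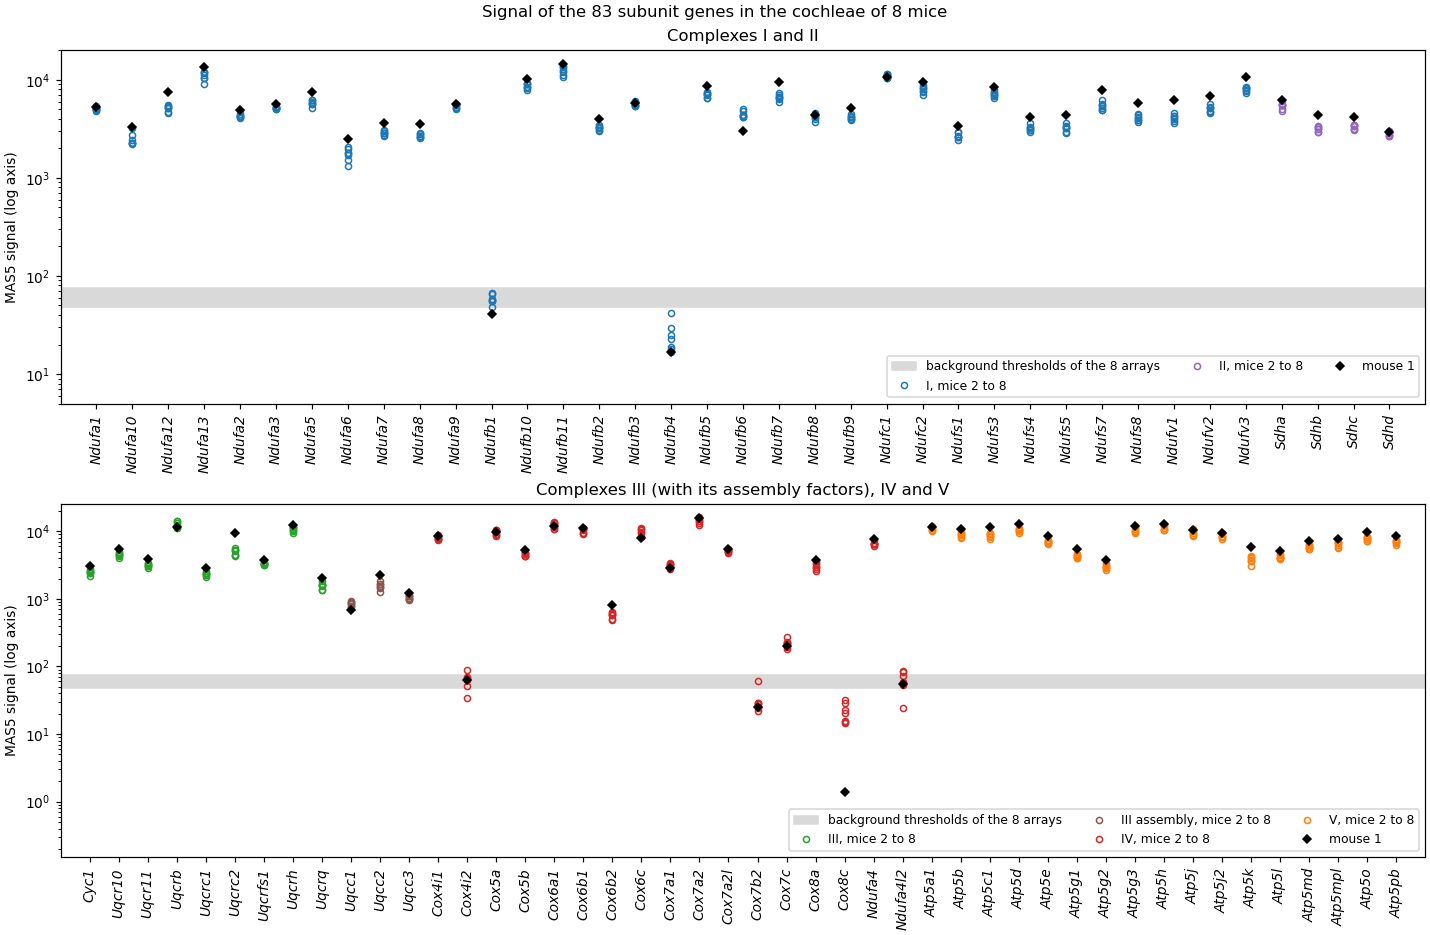
MAS5 signal (log axis) of each of the 83 subunit genes in each of the 8 mice, by complex; the black diamond is mouse 1, open circles are mice 2 to 8, and the grey band spans the background thresholds of the 8 arrays (48.5 to 75.0). The 6 genes not detected on every array have mice in or below the band. Mouse 1 is the highest point for 56 of the 77 detected subunit genes (72.7%), against 33.9% of all detected genes.

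The 6 genes below this rule were Cox4i2, Ndufa4l2, Cox7b2 and Cox8c in complex IV and Ndufb1 and Ndufb4 in complex I. Cox4i2, an isoform induced by low oxygen, was above background on 5 arrays with signals of 33.7 to 89.7, and Ndufa4l2, a paralog of Ndufa4 also known as a hypoxia target, on 4 arrays with 24.1 to 84.8. The isoforms Cox7b2 (22.1 to 60.3) and Cox8c (1.40 to 32), known chiefly from testis, were above it on 0 arrays. Ndufb1 (40.5 to 66.9, 2 arrays) and Ndufb4 (16.7 to 42.1, 0 arrays) are part of complex I in all tissues, and each was read by 1 probe set. Among detected members, 10 also had another probe set that was above background on no array, so a low probe set does not show a low gene. The detected member nearest the threshold was Cox7c, another ubiquitous subunit, at 181 to 275.

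The promoters of 4 members are printed because these genes recur in the results: Ndufs7, Ndufs3 and Atp5k were highest in mouse 1, while Cox7a2 of complex IV was not. They are RefSeq sequences on GRCm38.p6 running from 250 bases before to 50 after the start of transcription, written 5′ to 3′ on the strand of the gene. Capitals mark exact matches, on either strand, to 2 motifs of factors known for nuclear genes of the respiratory chain: ETS, the core bound by NRF-2/GABP (CCGGAAGT), and YY1 (AAGATGGCG). The positions are Ndufs7 at chr10:80249199-80249498, plus strand; Ndufs3 at chr2:90904672-90904971, minus strand; Atp5k at chr5:108434350-108434649, minus strand; and Cox7a2 at chr9:79759804-79760103, minus strand.
Ndufs7: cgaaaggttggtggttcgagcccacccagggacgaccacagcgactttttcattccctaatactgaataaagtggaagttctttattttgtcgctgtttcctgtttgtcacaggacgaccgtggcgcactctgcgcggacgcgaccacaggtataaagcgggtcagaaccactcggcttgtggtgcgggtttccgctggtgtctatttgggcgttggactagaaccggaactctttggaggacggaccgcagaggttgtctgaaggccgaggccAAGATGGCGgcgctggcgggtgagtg
Ndufs3: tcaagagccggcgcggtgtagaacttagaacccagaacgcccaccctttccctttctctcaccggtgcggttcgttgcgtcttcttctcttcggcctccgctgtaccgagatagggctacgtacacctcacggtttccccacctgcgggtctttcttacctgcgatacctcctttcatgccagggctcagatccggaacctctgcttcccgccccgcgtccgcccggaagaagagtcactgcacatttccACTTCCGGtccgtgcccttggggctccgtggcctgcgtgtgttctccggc
Atp5k: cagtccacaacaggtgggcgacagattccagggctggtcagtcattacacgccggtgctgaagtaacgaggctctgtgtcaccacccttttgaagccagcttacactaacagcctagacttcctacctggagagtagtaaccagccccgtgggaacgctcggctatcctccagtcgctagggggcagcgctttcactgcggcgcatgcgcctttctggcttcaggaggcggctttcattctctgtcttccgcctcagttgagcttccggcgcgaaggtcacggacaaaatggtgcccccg
Cox7a2: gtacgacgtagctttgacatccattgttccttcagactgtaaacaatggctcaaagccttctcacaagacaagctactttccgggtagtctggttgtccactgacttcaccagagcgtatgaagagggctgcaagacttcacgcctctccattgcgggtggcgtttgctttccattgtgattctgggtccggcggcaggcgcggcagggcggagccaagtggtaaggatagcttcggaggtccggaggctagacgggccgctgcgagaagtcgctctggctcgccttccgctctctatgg
Ndufs7 holds the YY1 motif from base 25 after the start and Ndufs3 the ETS motif in reverse complement from base 1. Atp5k and Cox7a2 hold neither in this window.

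RefSeq promoters were found for 68 of the 83 genes. The YY1 motif was in those of 6 members (8.82%: Atp5j, Atp5j2, Ndufa9, Ndufc1, Ndufs4 and Ndufs7), against 3.64% of the 9205 detected genes with a promoter, 2.54% of the 14368 such genes on the array and 1.40% of all 32851 promoters. The ETS motif was in those of 5 members (7.35%: Atp5h, Cox8a, Ndufs3, Uqcr11 and Uqcrh), against 8.93%, 6.65% and 3.89%. Members and the first 2 backgrounds are counted per gene and the last per promoter, and the directions can differ between them. Of general promoter elements, the GC box (GGGCGG) was in 45.6% of members, against 69.9% of detected genes, 57.5% of array genes and 35.7% of all promoters, and the TATA box (TATAAA) in 10.3%, against 8.71%, 11.5% and 13.6%. None of these motifs contains another, and 57 members held neither ETS nor YY1 in the window. These are matches of letters only. The members without an entry were Atp5a1, Atp5mpl, Cox4i1, Cox4i2, Cox6c, Cox8c, Cyc1, Ndufa2, Ndufa4l2, Ndufb9, Ndufs1, Sdhc, Uqcrb, Uqcrc2 and Uqcrq.

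Complex I is the largest of the complexes, and its core subunits carry the electrons from NADH to ubiquinone. By the probe sets used, the 6 nuclear core subunits measured were all highest in mouse 1, as were 33.9% of all detected genes. Ndufv1, which binds NADH and the flavin, ranged from 3606 to 6156 with a median of 4183. Mouse 1 gave 6156 and the other 7 mice 3606 to 4585, with a log2 difference of 0.59 between mouse 1 and the mean of the rest. Ndufs8, an iron-sulfur subunit near the ubiquinone site, was at 5808 in mouse 1 and 3704 to 4459 in the rest. Ndufs7, its neighbour in that chain and the gene of the first promoter above, was at 7865 against 4885 to 6277. Ndufv2, an iron-sulfur subunit of the NADH-binding arm, gave 6884 against 4612 to 5641, and Ndufs1, the largest iron-sulfur subunit, 3348 against 2455 to 2941. Ndufs3, a core subunit that carries no cluster, moved least, with 8398 in mouse 1 and 6518 to 7771 elsewhere. For each of the 6, mouse 1 lay above the whole range of the other 7 mice in the probe set used. Another Ndufv2 probe set did not share this, with 3581 in mouse 1 and 2855 to 3594 in the others. A further one, of the _x_at type, did (3862 against 2810 to 3724).

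The accessory subunits surround this core and are needed for its assembly and stability. Ndufb11 and Ndufa13, the brightest, had means of 12512 ± 1278 and 11264 ± 1283 (SD, n = 8), and mouse 1 was highest for both. Of the 25 detected, 19 (76%) were highest in mouse 1, against 33.9% of all detected genes. The exceptions were Ndufb8 and Ndufc1 (mouse 3), Ndufb6 (mouse 4), Ndufa9 (mouse 5), and Ndufa1 and Ndufb3 (mouse 8). Besides Ndufa6, the mouse 1 signal was farthest above the other mice for Ndufa12, which lies beside the core at the foot of the peripheral arm (7443 against 4531 to 5560.1), and for Ndufb7, a subunit on the intermembrane side (9409.8 against 5944 to 7261). The other probe sets of Ndufa12 above background on all arrays went the opposite way, with mouse 1 lowest in both: one gave 4774 in mouse 1 and 5769 to 7509 in the others and the other 6036 in mouse 1 and 6601 to 7510.3 in the others. Ndufa6, a member of the LYR family that binds the mitochondrial acyl carrier protein, had the largest spread in complex I (SD of log2 signal 0.28), with signals of 2516, 2067, 1321, 1719, 1960.0, 1505, 1797 and 1808 in mice 1 to 8. Its range was set from both ends, by mouse 1 above and mouse 3 below. Ndufc1, a small membrane subunit, had the smallest spread of all members (0.056), and its 8 signals lay between 10478 and 11439.8. Ndufa5 at 7471 and Ndufb9 at 5171 in mouse 1 exceeded the other mice, which lay at 5149 to 6261 and 3879 to 4429. Ndufb6, a membrane-arm subunit named here after its values were seen, went the other way: it was at 2977 in mouse 1 and 4157 to 4979 in the others. Ndufb6's second probe set did not share this, with 2855 in mouse 1 and 2789 to 3143 in the rest.

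Complex II links the citric acid cycle to the chain. Sdha, the flavoprotein that oxidises succinate, ranged from 4799.5 to 6211 with a median of 5528, and Sdhb, the iron-sulfur subunit, ranged from 2907 to 4347 with a median of 3223. Sdhc and Sdhd anchor both in the membrane; Sdhc ranged from 3092 to 4216 with a median of 3398, and Sdhd ranged from 2657 to 3023 with a median of 2887. Mouse 1 was highest for Sdha, Sdhb and Sdhc and did not overlap the others, whose highest signals were 6048, 3403 and 3487. Sdhd was highest in mouse 5 and had the smallest spread of the complex (SD of log2 signal 0.072), against 0.18 for Sdhb. This depended on the probe set. Another Sdhd probe set, brighter but of the _x_at type, had an SD of 0.47. Mouse 1 was lowest there, at 2177 against 4981 to 6106.5 in the others.

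In complex III, Uqcrc2, a structural core subunit, varied more than any other detected member. Its signals in mice 1 to 8 were 9343, 5304, 5083, 5222, 5566, 4292, 4483 and 4464. Mouse 1 alone was high, 1.90-fold above the mean of the other 7 mice. Uqcrc2 was read by another probe set as well, and that one gave 4949 in mouse 1 and 4610 to 5306 in the others, an SD of log2 signal of 0.077 against 0.36. The excess of mouse 1 was therefore seen by only 1 of its 2 probe sets. The catalytic subunits varied less: Cyc1, which holds the heme that reduces cytochrome c, ranged from 2210.2 to 3077 with a median of 2516, and Uqcrfs1, the Rieske iron-sulfur protein, ranged from 3126 to 3777 with a median of 3244, the smallest spread of the complex (0.092). Of the 2 brightest, Uqcrh, the hinge protein between cytochrome c1 and cytochrome c, was highest in mouse 1 (12467 against 9385 to 11767). Uqcrb, which lies near the ubiquinone site, was highest in mouse 3 (14358) and at 11564 in mouse 1. The remaining subunits Uqcrc1, Uqcr10, Uqcr11 and Uqcrq were highest in mouse 1 as well, so that Uqcrb was the 1 exception among 9. Of all detected genes, 33.9% were highest in mouse 1. The assembly factors Uqcc1, Uqcc2 and Uqcc3 are needed for the maturation of cytochrome b. Uqcc2 was highest in mouse 1 at 2255 against 1285 to 1847, Uqcc3 likewise at 1241 against 964 to 1140.0, and Uqcc1 was lowest there at 695 against 751 to 936. The second detected probe set of Uqcc1 was highest in mouse 1 instead (331 in mouse 1 and 222 to 293 in the others). The mean pairwise correlation of the 3 genes was 0.10 over 8 mice and 0.55 without mouse 1.

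Complex IV exists in tissue-specific versions, because several of its subunits have isoforms encoded by separate genes. The ubiquitous isoforms were bright on every array: Cox4i1 ranged from 7360.4 to 8671 with a median of 8021, Cox6a1 ranged from 10761 to 13696 with a median of 11911, and Cox6b1 ranged from 9146 to 11062 with a median of 10581. Cox7a2, the ubiquitous isoform of subunit VIIa, had the highest signal of all 83 members (14562 ± 1304), and its signals in mice 1 to 8 were 15482, 13194, 16055, 14959, 14390.4, 14054, 12417 and 15942. Mouse 3 was its highest and mouse 7 its lowest, and mouse 1 was below mice 3 and 8. Cox8a, the ubiquitous subunit VIII, ranged from 2627 to 3808 with a median of 3137, Cox6c ranged from 8057 to 11306 with a median of 9575 and Ndufa4, first assigned to complex I and now placed in complex IV, ranged from 6109 to 7660.5 with a median of 6543. Cox5a, a subunit on the matrix side, ranged from 8489 to 10544 with a median of 9816, with mouse 8 highest and mouse 7 lowest, and Cox5b ranged from 4244 to 5320.0 with a median of 4636, with mouse 1 highest. Cox7a2l, which helps join complexes III and IV into supercomplexes, had the smallest spread of the complex (SD of log2 signal 0.079).

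Isoforms known from other tissues were also present. Cox7a1, the heart and skeletal muscle isoform of subunit VIIa, was detected in all mice at 2766 to 3379.7, and Cox6b2, known as a testis isoform, at 487 to 802. The muscle isoforms outside the set differed from one another: Cox8b was above background on all arrays at 2267 to 3778, whereas Cox6a2 gave 50.2, 76.1, 90.1, 7.30, 473, 14.5, 80.2 and 56.1 in mice 1 to 8 and was above background on 6 arrays. Cox6a2 was high in mouse 5 alone. In that mouse 10 of 14 skeletal muscle markers and all 9 measured adipocyte markers had their highest signal, against 8.23% of all detected genes. Only 2 of the 14 muscle and 3 of the 9 adipocyte markers were above background on every array. The myosin light chain Mylpf was at 3034 in mouse 5 against 62.3 to 263 in the others. The brown fat uncoupling protein Ucp1 was at 2378 against 31.2 to 236. The summed signal of the muscle list was 21405 in mouse 5 and 4129 to 8434 in the others, with Ckm and Myh7 above background on 0 arrays. Much of the sum outside mouse 5 was the signal of Pvalb. It gave 5978 in mouse 5 and 3142 to 6490 in the others, with mouse 8 highest. The summed signal of the adipocyte list was 11168 in mouse 5 and 676 to 2053 elsewhere, with Retn and Lep above background on 0 arrays. The part of these cells in the Cox6a2 signal was not tested. Cox7a1 did not follow: mouse 5 gave 2947, inside the range of the other mice, and Cox8b was highest in mouse 1 (3778), with mouse 5 next at 3174.

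**Figure D2:**
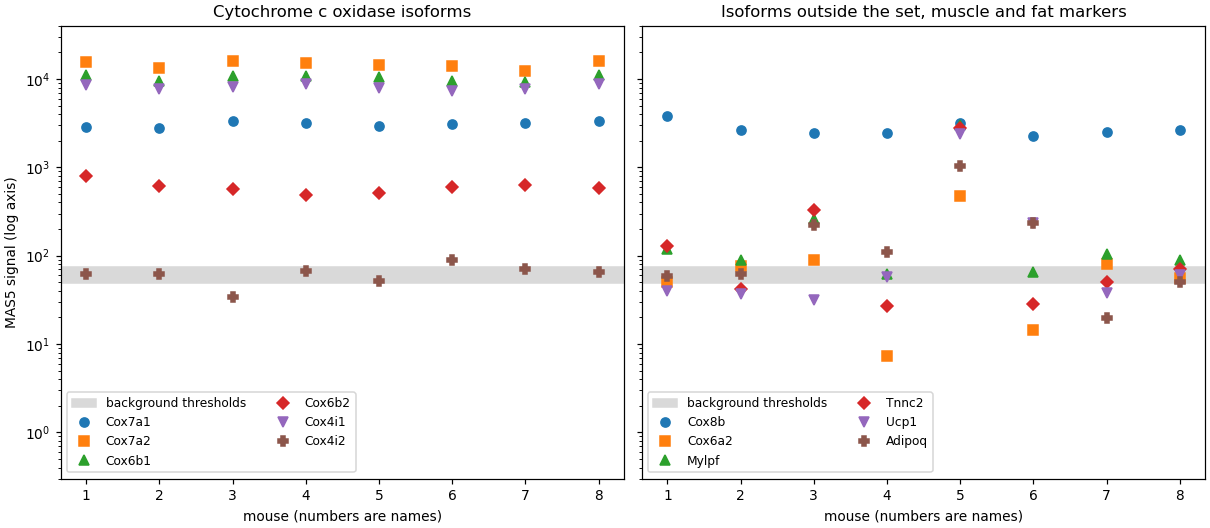
MAS5 signal (log axis) by mouse of cytochrome c oxidase isoforms in the set (left) and of Cox8b, Cox6a2, 2 skeletal muscle markers (Mylpf, Tnnc2) and 2 fat markers (Ucp1, Adipoq) outside it (right); 1 point is 1 mouse and the grey band spans the background thresholds. Cox7a1 stays between 2766 and 3379.7 in all mice, while Cox6a2 reaches 473 in mouse 5, where the muscle and fat markers peak.

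Complex V makes ATP in its catalytic head and passes protons through a ring of c subunits in the membrane. Atp5a1 and Atp5b, the alpha and beta subunits, form the head. Atp5a1, with the smallest spread of the complex (SD of log2 signal 0.088), ranged from 9979.7 to 11952 with a median of 11336. Its dimmest probe set spread more (0.20), with 9779 in mouse 1 and 6121 to 7359 in the others. Atp5b ranged from 7867 to 10984 with a median of 9380.4. Atp5h, a subunit of the peripheral stalk and the brightest of the complex, averaged 11601 ± 1106. The c subunit is encoded by 3 genes, whose mature proteins are known to be identical and which differ in the peptide that directs import. Atp5g1 was at 5525 in mouse 1 and 4079 to 4652 in the others, and Atp5g2 at 3795 against 2686 to 3364. Atp5g3 had its highest signal in mouse 3 (12149) and 11853 in mouse 1, so only Atp5g1 and Atp5g2 had mouse 1 outside the range of the rest. Atp5k, the small subunit e that helps ATP synthase dimerise, had the largest spread of the complex (0.28), with signals of 5924, 4131, 3614, 3023, 4299, 3821, 3616 and 3976 in mice 1 to 8. Mouse 1 was high and mouse 4 low. Of the 17 subunits, 13 were highest in mouse 1 and the other 4 (Atp5a1, Atp5g3, Atp5h and Atp5j) in mouse 3, while mouse 7 was lowest for 10. Among all 1140 genes in the top 10% by signal, mouse 1 was highest for 37.9% and mouse 3 for 240. Mouse 7 was lowest there for 399. The count of subunits highest in mouse 1 depended on the probe set in both directions. Other probe sets had mouse 1 lowest for Atp5pb (5455 against 5965.5 to 7466) and Atp5j2 (5459 against 5995 to 6998). They had mouse 1 highest for Atp5a1, as above, and Atp5h (9518.5 against 6719 to 7921). The rotor stalk genes Atp5c1, Atp5d and Atp5e gave 11389.6, 12967 and 8489 in mouse 1. Elsewhere they lay at 7624 to 9418, 9438 to 11026 and 6458 to 7311, again with mouse 1 above the range.

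The spread between mice was small for most subunits. Over the 77 detected genes the median SD of log2 signal was 0.14, against 0.18 over all 11394 detected genes and 0.12 over the 1140 genes in the top 10% by signal, where most members lie. Among members the SD ran from 0.056 (Ndufc1) to 0.36 (Uqcrc2), and 59 lay under the median of all genes. The ratio of the highest to the lowest mouse was under 1.5 for 63 members and exceeded 2 for 1 (Uqcrc2, 2.18). It exceeded 2 for 10.5% of all detected genes, but for only 19 of the 1140 genes in the top 10% by signal. The median ratio was 1.35 over members and 1.45 over all detected genes. The median SD was 0.19 for complex I core subunits, 0.14 for accessory subunits, 0.13 for complex II, 0.14 for complexes III and V and 0.12 for complex IV. This order rested on mouse 1: without it the medians were 0.10, 0.084, 0.083, 0.096 (III), 0.11 (V) and 0.13, with complex IV the largest.

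**Figure D3:**
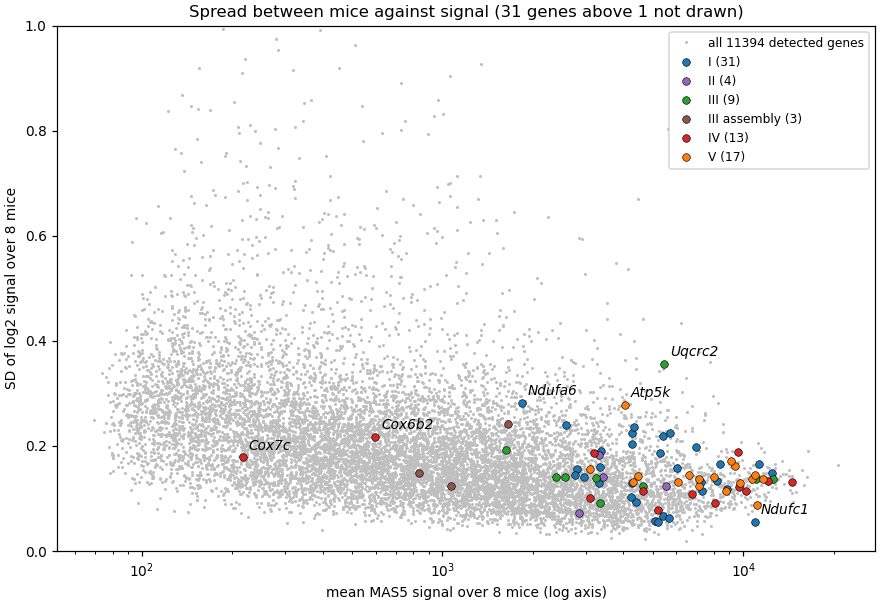
SD of the log2 signal over 8 mice (vertical axis, arbitrary log2 units) against mean MAS5 signal (log axis) for all 11394 detected genes (grey) and the 77 detected subunit genes, coloured by complex. Most subunits lie at high signal with SDs under 0.2; Uqcrc2 at 0.36 is the highest and Ndufc1 at 0.056 the lowest.

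Mouse 1 stood apart from the others for most members. Without it the median SD was 0.096 for members and 0.15 for all detected genes. It had the highest signal of the 8 mice for 56 of the 77 detected members (72.7%), against 33.9% of all detected genes and 37.9% of the top 10% by signal. It was also the lowest mouse for 24.1% of all genes, and thus an extreme of the whole profile in both directions, while it was lowest for only 3 members, Ndufb6, Cox6c and Uqcc1. The deviation of a gene in a mouse was taken as its log2 signal minus its mean over the 8 mice. Averaged over members it was 0.22 in mouse 1 and between -0.10 and 0.030 in the other 7 mice; over all detected genes it was 0.029 in mouse 1. Mice 6 and 7 were at the low end for members, at -0.10 (mouse 6) and -0.099 (mouse 7). Mouse 7 was the lowest mouse for 28 members, against 7.78% of all genes, and mouse 6 for 19, against 12.3%. In the top 10% by signal mouse 7 was lowest for 399 of 1140 genes. With arrays scaled to a common median, mouse 1 was highest for 47 members (61.0%) and 29.2% of all genes. The mean deviation of members in mouse 1 was then 0.17, and with quantile normalization 0.16, in the same direction.

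**Figure D4:**
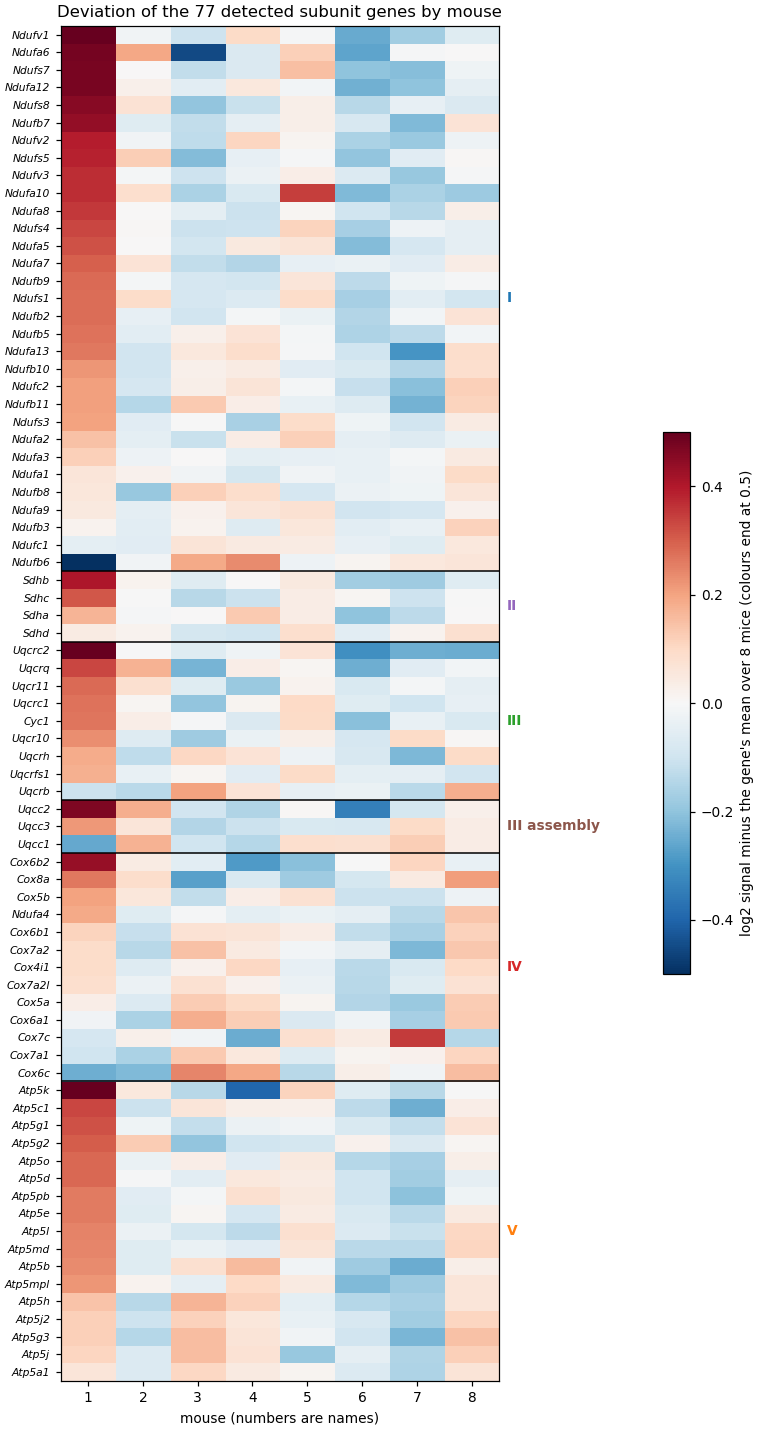
Deviation of log2 signal from the mean of the gene over 8 mice, for the 77 detected subunit genes (rows, grouped by complex) in mice 1 to 8 (columns); red is above and blue below the mean, and colours end at 0.5 in either direction. Mouse 1 is red for most rows of complexes I, II, III and V and pale for complex IV; mice 6 and 7 are mostly blue.

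Complexes differed in how far mouse 1 stood out. Its mean deviation was 0.39 for the 6 complex I core subunits, 0.22 for the accessory subunits, 0.23 for complex II, 0.27 for complex III and 0.24 for complex V, and 0.082 for complex IV. Mouse 1 was highest for 5 of 13 detected complex IV genes (Cox5b, Cox6b2, Cox7a2l, Cox8a and Ndufa4) and for 51 of 64 genes outside it. For complex IV the mean deviation of mouse 8 (0.084) was as high. Over the 77 members the difference between mouse 1 and the other mice fell with signal (Spearman's rho -0.33 across genes, which are not independent replicates). Among the 26 members with the highest signals, mouse 1 was highest for 0 of 6 complex IV genes and for 14 of 20 others, with median differences from the mean of the other mice of 0.071 and 0.24 (log2). Among the 25 in the middle it was highest for 3 of 3 complex IV genes and 18 of 22 others (0.22 and 0.29), and among the 26 dimmest for 2 of 4 and 19 of 22 (0.10 and 0.34). The count for bright complex IV genes depended on the probe set. The second probe sets of Cox6b1 (11609 in mouse 1 and 7255 to 9373 in the others) and Cox6c (9849 in mouse 1 and 7381 to 8384 in the others) were highest in mouse 1. Those of Cox6a1 and Cox7a2 were highest in mouse 8. The other probe sets of Cox5a had mouse 1 lowest in both, at 6145 against 7466 to 9711 and at 7717 against 8520 to 10555. With quantile normalization the mean deviations in mouse 1 were 0.021 for complex IV and 0.19 outside it. The difference between complex IV and the rest was not tested.

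Members followed one another across mice, and less closely without mouse 1. The mean Pearson correlation over pairs of detected members was 0.44, against 0.018 over pairs of all detected genes and 0.19 within the top 10% by signal. The value was 0.82 for complex I core subunits, 0.67 for complex V, 0.49 for complex II, 0.47 for complex I accessory subunits, 0.44 for complex III, 0.23 for complex IV and 0.10 for the 3 assembly factors. Without mouse 1 these were 0.45, 0.47, 0.29, 0.31, 0.15, 0.20 and 0.55 in the same order, so that the assembly factors then had the highest value. When the brightest probe set stood for every gene, the _x_at type included, the value for complex II over 8 mice was -0.036. These values are descriptions over genes that share 8 arrays and their scaling. Without mouse 1 the mean fell to 0.26 for members and rose to 0.30 within the top 10%. It was 0.31 when the top 10% was drawn again from the 7 arrays. These sets differ in signal, since not all members are in the top 10%. For the 53 members that are, the mean was 0.53 over 8 mice and 0.44 without mouse 1. With quantile normalization the means were 0.32 for members and 0.0070 for the top 10%, and with quantile normalization and without mouse 1 they were 0.24 and 0.0020.

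Where a gene had more than 1 detected probe set, the 2 brightest were compared across mice to see whether they reported the same variation. The test was an exact permutation test of Pearson's r over all 40320 pairings of mice, two-sided, with Benjamini-Hochberg adjustment over the 4462 genes that could be tested. The 2 probe sets agreed for 7 of 34 members (20.6%), against 4.01% of all genes tested. The 7 were Ndufv1, Ndufs8, Ndufa5 and Ndufb9 of complex I, Cox7a2 and Cox6b1 of complex IV, and Atp5a1 of complex V, with r from 0.83 to 0.98 and adjusted p from 0.0262 to 0.0369 in the exact permutation test. Cox7a2 gave r = 0.97, exact p = 0.000149, adjusted p = 0.0262; Spearman's rho = 0.98, exact p = 0.000397. Without the 2 mice farthest from the median of its brightest probe set (mice 2 and 7), r was 0.95. Ndufv1 gave r = 0.98, exact p = 0.000174, adjusted p = 0.0262; Spearman's rho = 0.95, exact p = 0.00114, and without mice 1 and 6 r was 0.88. For Cox6b1 r fell from 0.83 to 0.64 without mice 6 and 7.

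The remaining members ran from r = -0.44 for Ndufc1, the gene with the least spread, to r = 0.92 for Atp5d, the delta subunit of ATP synthase. Over the 34 members r was above 0 for 27, with a median of 0.62 against 0.31 over all genes tested. Without mouse 1 the medians were 0.68 and 0.32, and for the 7 called members r then lay between 0.83 and 0.97. Leaving out any 1 mouse left 0 members and 0 genes past the threshold. An unadjusted exact permutation p under 0.05 with r above 0 was then found for 12 to 15 of 34 to 36 members. Over all genes it was found for 651 to 869 of the 4465 to 4564 tested. The lowest adjusted p among members in the exact permutation test was 0.0538 to 0.0765. With 7 mice there are 5040 pairings and the smallest possible p is 0.000198, against 2.48e-05 with 8, so these counts also reflect the smaller design. Both probe sets were highest in mouse 1 for 12 of the 34 members, without a count over all genes tested to set beside it. The 2 probe sets did not pass the test for Uqcrc2 (r = 0.28), in which mouse 1 stood out most, nor for the 3 members lowest in mouse 1, Ndufb6 (r = 0.17), Cox6c (r = -0.20) and Uqcc1 (r = -0.32). Whether the probe sets of a gene share target sequence was not checked.

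Marker scores of cell types also differed between mice. In bulk tissue, fewer cells of a type and less RNA per cell cannot be told apart. The score of a list, the mean log2 deviation of its detected genes, was highest in mouse 1 for marginal cells (0.30 in mouse 1; -0.17 to 0.033 in the others), for neurons (0.57; -0.96 to 0.36) and for fibrocytes (0.15; -0.11 to 0.021). The summed signal of the 10 marginal cell genes was 42865 in mouse 1 and 33147 to 39652 elsewhere, and 7 of the 10 were highest in mouse 1. For the 10 fibrocyte genes the sum was 80708 against 63776 to 77151, with 6 of the 10 highest in mouse 1. That of the 11 neuronal genes was 37225 in mouse 1, 14613 in mouse 6 and 23697 to 33856 in the 6 animals that remain, and no gene of these 3 lists was at 0. Mouse 1 was low in osteoblast (-0.63) and neutrophil (-1.08) scores, and mouse 7 lowest in the neutrophil score (-2.87). The part of these cell types in the signals of the members was not tested.

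Each detected gene was then tested against 11 such scores, by the same exact permutation test with adjustment over all detected genes within a score. None of the 77 members and none of the other genes passed for any score (0% called). The lowest adjusted p among members in the exact permutation test was 0.172, for the neuron score. At an unadjusted exact permutation p under 0.05, 33 of 77 members were correlated with the marginal cell score, 32 of them positively, against 19.4% of all genes. The counts were 15 for the neuron score (9.11% of all genes), 10 for the fibrocyte score (6.46%), 3 for the osteoblast score (5.55%), 2 for the macrophage score (4.65%) and 0 for the other 6. The median r of members with the marginal cell score was 0.72, against 0.13 for all genes, and 0.37 without mouse 1; without mice 1 and 7, the 2 farthest from the median of the score, it was 0.015. With the neuron score the median was 0.56, 0.36 without mouse 1 and 0.15 without mice 1 and 6. With the fibrocyte score it was 0.52, -0.0040 without mouse 1 and 0.40 without mice 1 and 5. In simulated data of this size the test called 0 of 200 genes made with a correlation of 0.9 and all 200 at 0.99, so a relation of 0.9 would have been missed.

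Other genes of the pathway were read beside the 33.9% of all detected genes that were highest in mouse 1. Assembly factors, which build the complexes without being part of them, were detected for 39 of 40 measured, and 17 of the 39 (43.6%) were highest in mouse 1. Surf1, needed to assemble complex IV, was at 5574 in mouse 1 with 4216 as the next highest, and Nubpl, which delivers iron-sulfur clusters to complex I, at 2147 with 1603 next. Cox15 and Sco1, which serve heme and copper delivery to complex IV, were lowest in mouse 1 (590.3 and 451), with highest signals of 967 and 641 in other mice.

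Among electron carriers and related genes, 8 of 9 were detected, and 6 of these (75.0%) were highest in mouse 1, a share like that of the subunits (72.7%). Etfb, a subunit of the flavoprotein that carries electrons from fatty acid oxidation, gave 7779.8 in mouse 1 with 5622 next. Cycs, the cytochrome c that connects complexes III and IV, went the other way, with 3868, 5771, 7542, 6486, 6157, 6497, 6172 and 7544 in mice 1 to 8; mouse 1 was the lowest by a wide gap. Its testis counterpart Cyct was above background on 0 arrays.

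Of 19 measured regulators of mitochondrial genes, 17 were detected and 6 of them (35.3%) were highest in mouse 1, close to the share of all genes. Tfam, which packages and transcribes mitochondrial DNA, was at 1531 in mouse 1 with 1413 next, and the coactivator Ppargc1a lay at 1375 to 1699.8 with mouse 1 at 1503. Gabpa, the DNA-binding subunit of GABP, was lowest in mouse 1 (1126; highest 1959.5), as was Yy1 (3108; highest 4195), and Nrf1 stood at 105 in a range of 81.2 to 138. Esrrb, a nuclear receptor also on the marginal cell list, was highest in mouse 1 at 4794. The difference between these lists and the subunits was not tested.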

How the data were processed

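RNA of cochlear soft tissue from 8 mice (1 array each, TRIZOL and RNeasy extraction, NuGEN Ovation amplification, biotin label, per the labels' protocols) was analysed. The deposited values are MAS5 intensities on a linear scale, 1 per probe set; per the submitters' processing notes MAS5 was the software (version not given in the sources used). Leaving out 2% of probe sets at either end, the deposited intensities had the same mean on every array, so scaling by the authors was already done. After removal of 64 control probe sets, the platform annotation gave 1 gene for 34945 probe sets. It gave several for 932 (9 of them with a subunit symbol) and no gene for 9160, and these were not used.

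The brightest probe set on average stood for a gene (_x_at probe sets only in the absence of others), and log2 was taken after raising signals under 1 to 1. The threshold for p-values was 0.05 after Benjamini-Hochberg adjustment over all genes tested, and the exact tests counted pairings of mice with |r| at least as large as observed (smallest possible p 2.48e-05). A score needed at least 3 detected genes, so 11 of 13 lists had one: skeletal muscle (2 genes detected on all arrays) and erythroid (1) did not. P-values take mice as units and include variation of the assay.

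The members and lists were chosen with earlier results of these data known. Genes named are, per complex, the 2 brightest, the most and the least variable detected members, every member not detected on all arrays, the listed isoforms and the members passing a test; the other members named (Ndufs7, Ndufv2, Ndufs1, Ndufs3, Ndufa12, Ndufb6, Ndufb7, Cyc1, Atp5b, Atp5c1, Atp5d, Atp5e, Uqcc1, Cox5a, Cox5b, Cox7c and those listed by motif, by highest mouse or by missing promoter) and the examples from the pathway and marker lists were chosen after their values were seen. Promoters are RefSeq's on GRCm38.p6. Tests were checked on simulated data: of 200 genes made with a correlation of 0.9 the probe set test (4462 genes) called 31, and at 0.99 all 200, with 1 and 2 of 4262 unchanged genes called. The score test (11394 genes) called 0 and 10 of 11194 unchanged genes at these settings. The software was scipy 1.17.1, pandas 2.3.3 and numpy 2.4.6 under Python 3.11.15, with figures by matplotlib 3.10.9. Alternatives covered normalization, scaling, the log offset, the choice of probe set, the background and each mouse left out.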

Additional observations from a re-analysis of the deposited data

Results flagged for a closer look

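The 40 named genes and the mean deviations of 10 groups of members were checked for a mouse lying far from the other 7, measured as its gap to the nearest other mouse over the whole range (Dixon's criterion at 95%). Chance alone marks about 1 in 20 such groups of values. Over all detected genes 12.6% were marked, and of the detected members 13 of 77. The named genes include the most variable detected member of each complex, picked from these same values. Neither rate therefore applies to the number of named genes marked.

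Mouse 1 lay far above the rest for 7 named genes. The signals were 6156 against 3606 to 4585 for Ndufv1, 5808 against 3704 to 4459 for Ndufs8 and 5171 against 3879 to 4429 for Ndufb9 in complex I. In complex II they were 4347 against 2907 to 3403 for Sdhb and 4216 against 3092 to 3487 for Sdhc. They were 9343 against 4292 to 5566 for Uqcrc2, where the other probe set did not show it, and 5525 against 4079 to 4652 for Atp5g1.

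Mouse 1 also stood apart in the mean log2 deviation of all members (0.22), of members outside complex IV (0.25), of complex I (0.25), its core (0.39) and its accessory subunits (0.22), of complex II (0.23) and of complex III (0.27). These means share genes and are not independent of each other. Complex IV, complex V and the assembly factors of complex III did not meet the criterion.

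The other 3 cases were at background level. Cox7b2 was 60.3 against 22.1 to 28.7 with mouse 6 high, and Cox8c was 1.40 against 14.8 to 32 with mouse 1 low, both above background on no array. Ndufa4l2 was 24.1 against 53.7 to 84.8 with mouse 5 low.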

How the results depend on the processing

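Over 17 alternative settings, the number of detected members stayed at 76 to 79 and the number of members correlated with a cell type score at 0. The count of members highest in mouse 1, whose alternatives were chosen after seeing the data, was 46 to 58; the lowest were 46 with the mean of all probe sets and 47 with median scaling, where 29.2% of all genes were highest in mouse 1. The number of members whose 2 probe sets agree was 3 with quantile normalization, 12 with _x_at probe sets treated like the others, and 0 with each mouse left out in turn; with 7 mice the smallest possible p is 0.000198; all genes called then numbered 139, 359 and 0, and with median scaling 255. It was not run for the mean of all probe sets, which leaves 1 value a gene. The mean pairwise correlation was 0.26 without mouse 1, the range with each mouse left out being 0.26 to 0.48, and the median SD ranged from 0.096 to 0.15. With quantile normalization and without mouse 1, a setting chosen after seeing the data, the median SD was 0.079 and the mean correlation 0.24. Of 520 mean log2 signals of named genes, 492 moved by less than 1 SD and 28 by more, 16 of them with the mean of all probe sets. No paired analysis was possible because all arrays belong to 1 group. The number of arrays and probe sets near background (6 members) limit these data: signals there have no firm order between mice.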
